A study of Mus musculus with 6 samples.

Results

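The 10 genes described here are those of the BCL2 family and its neighbours in the control of cell survival, chosen by their mouse symbols as Bcl2, Bcl2l1, Bcl2a1b, Bcl2a1d, Mcl1, Bcl2l11, Bax, Bak1, Cflar and Xiap, and all 10 were found among the 55401 genes of the count table. RNA was sequenced from mouse T cells that had been cultured in macrophage supernatant, with 3 control and 3 NFL samples. The control samples received the supernatant of untreated macrophages, and the NFL samples received the supernatant of macrophages activated with 5 µg/mL neurofilament light chain (NFL), an axonal structural protein, over 24 h. The methods of the study name lower NFL concentrations, in ng/mL, for its treated cell lines and its macrophage co-cultures. The deposited design text says that this NFL was made from a freeze-thawed sciatic nerve lysate, whereas the methods of the study treat nerve lysate and NFL as separate agents and name a purchased NFL protein for injection into mice, so whether the macrophages received purified NFL or whole lysate cannot be told apart here. By the same design text, the macrophages of both groups came from CD11b-selected mouse spleen cells kept for 7 days with 50 ng/mL M-CSF, and the T cells were selected from spleen with CD8a beads and grown with 50% supernatant and 2% serum. The sample labels themselves say T cell, without a subset. The study names female C57BL/6 and NOD-SCID mice for its animal work but does not tie a strain or age to these cultures, the genotype and number of their donors are not given in the sources used here, and nothing there says that samples of a group came from separate animals, so p-values measure only the spread between these samples.

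Cells die by the mitochondrial route of apoptosis when the pore-forming proteins BAX and BAK open the outer mitochondrial membrane and cytochrome c escapes to activate caspases. The proteins of Bcl2, Bcl2l1 (BCL-XL), Mcl1 and the Bcl2a1 genes (A1) hold BAX and BAK in check, whereas BH3-only proteins such as BIM, the product of Bcl2l11, bind these guardians and release the pore formers. Cflar encodes FLIP, which blocks caspase-8 at death receptors, and Xiap encodes an inhibitor of caspases. In T cells, cytokines such as interleukin-2 and NF-κB signalling are known to raise several of the protective genes.

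The total count per library was 15843045 to 24639756, so that 3 counts, used here as a detection floor, was a level of 0.122 to 0.189 CPM, the unit in which counts are divided by the library total. Of 10 general T-cell markers, 9 were above the floor in each library and Cd2 had no count. Their levels were uneven, highest for Thy1 (1566 to 1707 CPM) and Trbc1 (343 to 374 CPM). Cd3e (48.8 to 65.0 CPM), Trbc2 (52.9 to 59.65 CPM), Cd247 (37.5 to 47.0 CPM) and Cd3g (6.01 to 8.85 CPM) lay between. Cd3d (2.3 to 4.8 CPM), Lck (3.64 to 5.93 CPM) and Trac (0.988 to 2.49 CPM) were low. Cd8a was at 3.22 to 4.49 CPM and Cd8b1 at 0.865 to 1.58 CPM, below Cd4 at 23.2 to 27.5 CPM, so the markers of CD8 cells, the kind named in the deposited design, were low. Among the Trbv genes, Trbv1 took 99.869% to 100% of the counts, where spleen T cells of many clones would use many such segments. These values go against the stated origin as CD8a-selected spleen T cells, so the levels below are those of the cells sequenced, called T cells by their label, and may not describe primary CD8+ T cells. Of 12 macrophage markers, 10 were at or under the floor in every library, and the summed level of the 12 was 24.7 to 27.4 CPM in control and 19.1 to 23.4 CPM in NFL libraries, nearly all of it Cd68. Of 8 B-cell markers 5 were at or under the floor, with sums of 12.1 to 13.3 CPM in control and 11.6 to 14.0 CPM in NFL libraries. Of 5 natural killer markers 2, Ncr1 and Klra8, were at or under it. The sums, mostly Eomes (415 to 449 CPM), were 461 to 482 CPM and 438 to 458 CPM. Klrb1c was also above the floor in each library, at 21.9 to 33.1 CPM. It had 799, 473 and 804 counts in control and 361, 390 and 389 counts in NFL replicates 1 to 3. Each NFL count was thus below each control count, although control replicate 2 had the smallest library total. Eomes is not particular to natural killer cells, and the study also counts it among markers of CD8+ T-cell exhaustion. Of 5 erythroid markers 3 were at or under it, with sums of 1.33 to 1.48 CPM and 0.983 to 1.98 CPM. Mitochondrial genes took 1.65% to 1.77% of counts in control and 1.54% to 1.60% in NFL libraries. The part of these differences in the results was not tested.

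Bcl2l1 was the member that rose with NFL supernatant, by 12.2%. Bcl2 had a fold of 0.943 and was just outside the threshold, and the other 6 measured members had fitted differences of less than 3%. Bcl2a1b and Bcl2a1d were at or under the floor in every library and could not be tested, which left 8 of the 10 members past the filter on low counts. By the quasi-likelihood test of edgeR, with p adjusted by Benjamini-Hochberg over all genes, 1 of the 8 was past an adjusted p of 0.05 (12.5%), against 7.00% of the 14082 genes tested. That member was higher, as were 3.47% of all genes, while 3.53% of all genes were lower. The groups did not overlap for 2 of the 8 members, Bcl2 and Bcl2l1, against 22.7% of all genes tested. Calls over all genes were 489 higher and 497 lower with TMM scaling, and 372 higher and 600 lower with library size alone. The median log2 fold change was -0.0217 over the 8 members and -0.00099 over all genes. In bulk RNA, a change in the number of cells of a kind and a change in RNA per cell cannot be told apart.

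**Figure D1:**
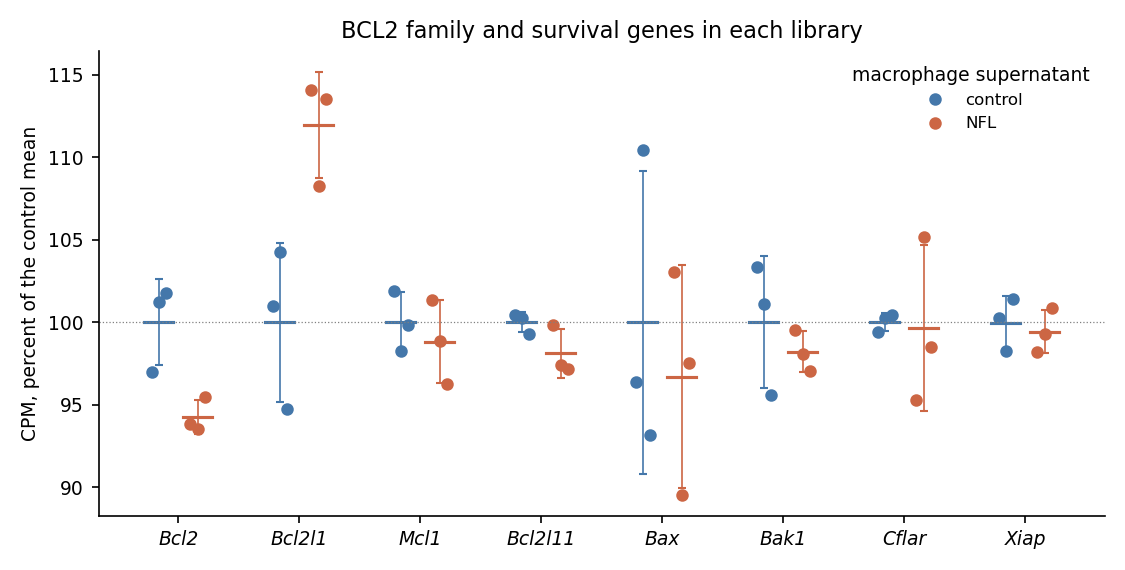
CPM of the 8 measured members in each library, as percent of the control mean (y axis), for control (blue) and NFL (orange) supernatant. Points are libraries, bars are means and whiskers are SD (n = 3). The 3 NFL libraries lie above the 3 control libraries for Bcl2l1 and below them for Bcl2, and the groups overlap for the other 6 genes.

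**Figure D2:**
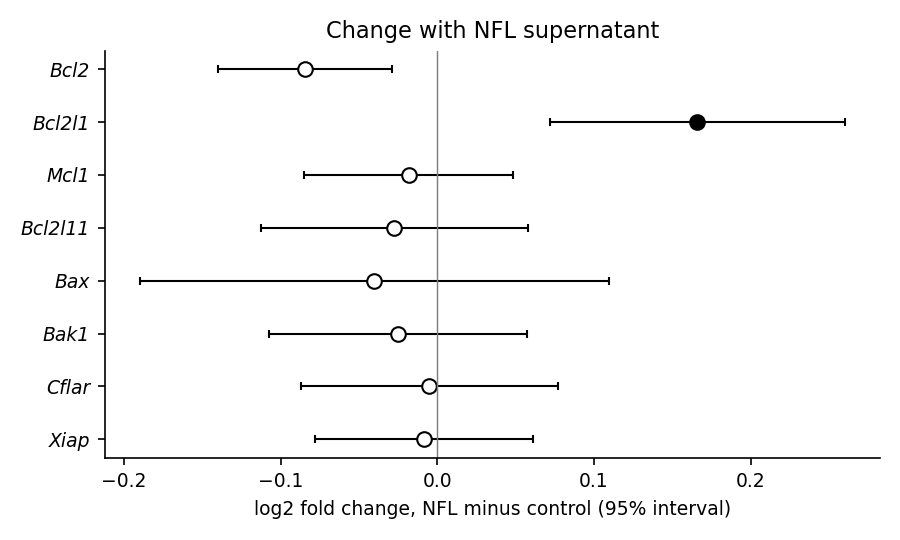
Log2 fold change of NFL against control for the 8 measured members (x axis), with 95% intervals from edgeR. The filled point marks the gene past an adjusted p of 0.05, Bcl2l1 at 0.17, and open points are genes that were not past it.

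Bcl2l1 (ENSMUSG00000007659.18, GRCm38 chr2:152780668-152831728, minus strand) encodes BCL-XL, a guardian of the mitochondrial membrane that activated T cells use. Its level was 78.4, 81.0 and 73.6 CPM in control replicates 1 to 3 and 88.6, 84.1 and 88.2 CPM in NFL replicates 1 to 3. All NFL libraries were thus higher than all control libraries. The means were 77.7 ± 3.74 CPM and 86.9 ± 2.51 CPM (SD, n = 3 each). The log2 fold change was 0.17 (standard error 0.047, 95% interval 0.072 to 0.26, edgeR adjusted p = 0.0189). The exact two-sided permutation p was 0.1, the smallest that 3 against 3 samples allow. This call did not hold with every library left out, when fewer samples remained. The adjusted p was 0.149 without control replicate 3, 0.0775 without NFL replicate 1 and 0.113 without NFL replicate 3, and the log2 fold change was 0.13 to 0.20 with each library left out in turn.

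RefSeq gives 3 start sites for Bcl2l1 in GRCm38.p6, and windows from 250 bases before to 50 bases after each were searched on both strands for the κB consensus motif bound by NF-κB and for TTCNNNGAA, the spaced palindrome bound by STAT5. A κB match was found in the window of the middle start site, at -242 to -233 from the start, and no TTCNNNGAA match in the 3 windows. Among all 32851 RefSeq promoter windows of this length, 8.46% held a κB match and 8.3% a TTCNNNGAA match. Across the 13 windows of the 8 measured members, the κB match of Bcl2l1 and a further match in 1 window of Xiap, at 23 to 32 from the start, were the ones found, and no TTCNNNGAA match was found. The window of Bcl2l1, that of Xiap, whose RNA differed little between groups, and that of Bcl2, which held no match, are shown because they set a member that rose beside members that did not, 5′ to 3′ with κB matches in capitals. They span chr2:152830668-152830967 (minus strand), chrX:42068148-42068447 (plus strand) and chr1:106714241-106714540 (minus strand) of GRCm38.p6. A match describes these letters and is not a measured binding site.
Bcl2l1 window: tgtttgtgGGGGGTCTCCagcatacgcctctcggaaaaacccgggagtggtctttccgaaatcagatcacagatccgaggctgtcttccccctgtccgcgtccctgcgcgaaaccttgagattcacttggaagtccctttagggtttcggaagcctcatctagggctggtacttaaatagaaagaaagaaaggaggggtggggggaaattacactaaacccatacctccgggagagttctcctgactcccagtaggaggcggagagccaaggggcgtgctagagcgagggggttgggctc
Xiap window: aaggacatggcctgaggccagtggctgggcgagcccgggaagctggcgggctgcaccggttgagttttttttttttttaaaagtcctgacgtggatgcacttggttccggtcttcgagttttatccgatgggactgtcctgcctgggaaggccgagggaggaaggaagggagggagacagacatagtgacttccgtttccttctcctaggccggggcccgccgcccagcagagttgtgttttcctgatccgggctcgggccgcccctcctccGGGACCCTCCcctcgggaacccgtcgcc
Bcl2 window: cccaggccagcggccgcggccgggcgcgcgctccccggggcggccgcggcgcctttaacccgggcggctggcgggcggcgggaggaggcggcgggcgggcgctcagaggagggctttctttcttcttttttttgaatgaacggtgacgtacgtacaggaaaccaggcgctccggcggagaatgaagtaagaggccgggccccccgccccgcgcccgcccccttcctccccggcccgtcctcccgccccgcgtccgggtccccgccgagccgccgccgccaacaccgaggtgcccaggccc

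Bcl2 (ENSMUSG00000057329.7, GRCm38 chr1:106538178-106714274, minus strand) encodes the founding protein of the family, which protects resting and memory lymphocytes. It was measured at 693, 723 and 727 CPM in control and 671, 669 and 682 CPM in NFL replicates 1 to 3. The highest NFL library was below the lowest control library. The means were 714.6 ± 18.6 CPM and 673.7 ± 7.32 CPM (SD, n = 3 each). The log2 fold change was -0.085 (standard error 0.028, 95% interval -0.14 to -0.029). The edgeR adjusted p of 0.0506 was just outside the threshold (unadjusted p = 0.0036, exact two-sided permutation p = 0.1), and it was 0.0362 with the DESeq2 Wald test and 0.0252 with limma-voom. An antisense transcript, D630008O14Rik, shares 558 exon bases with Bcl2 and had 5.12 to 7.53 CPM, little beside the level of Bcl2.

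Mcl1 (ENSMUSG00000038612.16, GRCm38 chr3:95658788-95663176) encodes a short-lived guardian that lymphocytes need throughout life. Its level was 213.9, 206.2 and 209.6 CPM in control and 212.7, 207.5 and 202.1 CPM in NFL replicates 1 to 3. The groups overlapped, with a log2 fold change of -0.018 (95% interval -0.085 to 0.048, edgeR adjusted p = 0.836). The related Bcl2l2 (BCL-W), from the list of guardians, was at 53.9 ± 0.323 CPM in control and 57.3 ± 1.22 CPM in NFL libraries (SD, n = 3 each). Its groups did not overlap, but it was not past the threshold (log2 fold change 0.088, edgeR adjusted p = 0.397).

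The mouse carries several copies of the gene for A1, a guardian known as an NF-κB target in lymphocytes. Bcl2a1b (ENSMUSG00000089929.1, GRCm38 chr9:89199209-89207827, plus strand) had 3 counts in control replicate 1 and 0 in the other 5 libraries. Bcl2a1d (ENSMUSG00000099974.1, GRCm38 chr9:88723285-88731914, minus strand) had 0 counts in all 6, as had Bcl2a1a and Bcl2a1c. A count of 0 allows a level of up to 0.122 to 0.189 CPM at these depths, for counting error alone. Summed into 1 gene, the 4 copies held 3 counts in all and did not pass the filter, so no fold change is given. The copies are near-identical, and how reads that match several of them were counted is not stated. The coding sequences of Bcl2a1b and Bcl2a1d have 516 bases each and differ at 6 of them, and Bcl2a1b and Bcl2a1a differ at 11. Of all stretches of 100 bases in the Bcl2a1b transcript, 56.8% also occur in transcripts of another gene, among them the overlapping gene Gm29094, which had 0 counts too. For Bcl2a1d the share was 54.7%, and for Bcl2a1c it was 0%. The first 150 coding bases of 3 copies are shown, in GENCODE M21, to let the near-identity be seen, with capitals at positions where the copies differ. Counted from 1 at the start codon, Bcl2a1d differs from Bcl2a1b by G4T, T48C and A94C.
Bcl2a1b: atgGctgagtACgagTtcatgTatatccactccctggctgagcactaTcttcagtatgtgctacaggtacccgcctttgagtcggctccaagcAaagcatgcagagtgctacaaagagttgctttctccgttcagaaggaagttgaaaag
Bcl2a1d: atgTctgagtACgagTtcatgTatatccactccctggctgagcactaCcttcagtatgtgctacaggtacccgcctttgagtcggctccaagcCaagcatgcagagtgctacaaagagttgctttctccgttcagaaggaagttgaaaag
Bcl2a1a: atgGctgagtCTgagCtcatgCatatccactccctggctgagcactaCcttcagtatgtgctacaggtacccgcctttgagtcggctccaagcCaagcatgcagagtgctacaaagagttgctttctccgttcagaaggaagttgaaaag

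Bcl2l11 (ENSMUSG00000027381.16, GRCm38 chr2:128126038-128162547) encodes the BH3-only protein BIM, the main trigger of death when T cells lose cytokine. It was measured at 95.8, 95.6 and 94.7 CPM in control and 95.2, 92.9 and 92.7 CPM in NFL replicates 1 to 3. The groups overlapped (log2 fold change -0.027, 95% interval -0.11 to 0.058, edgeR adjusted p = 0.804). The pore-forming genes also overlapped between groups. Bax (ENSMUSG00000003873.11, GRCm38 chr7:45461697-45466898) had 30.3, 34.7 and 29.3 CPM in control and 32.4, 28.1 and 30.6 CPM in NFL libraries, the widest relative spread among the measured members in either group. Its log2 fold change was -0.040 (95% interval -0.19 to 0.11, edgeR adjusted p = 0.841). Bak1 (ENSMUSG00000057789.14, GRCm38 chr17:27019810-27029009) had 114.6, 112.1 and 106.0 CPM in control and 110.4, 108.8 and 107.6 CPM in NFL libraries. Its log2 fold change was -0.025 (95% interval -0.11 to 0.057, edgeR adjusted p = 0.816). Ggnbp1, which overlaps Bak1 on the other strand, had at most 2.38 CPM.

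Cflar (ENSMUSG00000026031.15, GRCm38 chr1:58711508-58758884) had 113.6, 114.6 and 114.8 CPM in control and 108.9, 120.2 and 112.6 CPM in NFL replicates 1 to 3. The NFL libraries lay on both sides of the narrow control range (log2 fold change -0.0052, 95% interval -0.087 to 0.077, edgeR adjusted p = 0.969). Xiap (ENSMUSG00000025860.15, GRCm38 chrX:42059679-42109656) had 167.6, 164.3 and 169.6 CPM in control and 164.2, 166.0 and 168.6 CPM in NFL libraries. Its difference had the narrowest interval after Bcl2 and Mcl1 (log2 fold change -0.0083, 95% interval -0.078 to 0.061, edgeR adjusted p = 0.937). The intervals of the 6 members other than Bcl2 and Bcl2l1 excluded log2 changes beyond -0.19 and 0.11.

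Levels of different genes were compared per length, as TPM (counts per exon length, scaled to the same sum in each library) computed with exon lengths from GENCODE M21. Over the 6 libraries the order was Bcl2 (269.5 ± 12.95 TPM, SD, n = 6), Mcl1 (216.9 ± 5.17), Bak1 (162 ± 5.20), Bax (69.7 ± 5.74), Bcl2l1 (63.7 ± 4.03), Xiap (62.6 ± 1.05), Bcl2l11 (41.8 ± 0.971) and Cflar (32.0 ± 1.16). The ranges of Bax, Bcl2l1 and Xiap overlapped, while every other neighbouring pair was apart in all libraries. Bcl2 and Mcl1 stood above 95.6% and 94.2% of the tested genes with a length, and Cflar above 59.3%. By their group means, Bcl2l1 and Xiap changed places between the groups, although Bcl2l1 was already above Xiap in control replicate 2. In control libraries Bcl2l1 was at 60.7, 63.9 and 57.6 TPM and Xiap at 62.8, 62.8 and 64.3 TPM, with overlapping ranges. With NFL supernatant Bcl2l1 was at 68.0, 64.8 and 67.5 TPM, above Xiap at 61.1, 62.0 and 62.5 TPM in each library.

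**Figure D3:**
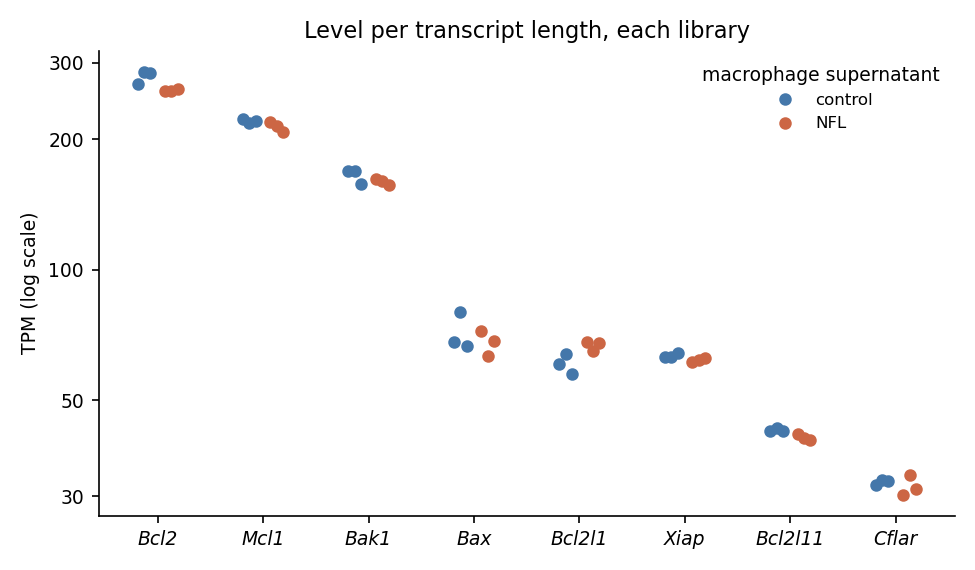
TPM on a log scale (y axis) of the 8 measured members in each of 3 control (blue) and 3 NFL (orange) libraries, ordered by mean level. Bcl2, Mcl1 and Bak1 lie above 150 TPM in every library, and the other 5 genes lie below 80 TPM.

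Ratios between members within a library do not depend on scaling to library size. They are given as descriptions, without a test. The ratio of Bcl2 to Bcl2l1, in TPM, was 4.43, 4.47 and 4.95 in control and 3.79, 3.98 and 3.87 in NFL libraries. The groups had to be apart, because Bcl2 was lower and Bcl2l1 higher in every NFL library, and the ratio restates those differences. The ratio of Bcl2l1 to Bcl2l11 was 1.43, 1.48 and 1.36 in control and 1.63, 1.58 and 1.67 in NFL libraries. This ratio of a guardian to its BH3-only partner was thus higher in each NFL library, which restates the rise of Bcl2l1 beside little change in Bcl2l11. The ratio of Bcl2 to Bcl2l11 was 6.57 ± 0.20 and 6.31 ± 0.14 (SD, n = 3 each), with overlapping groups, and that of Mcl1 to Bcl2l11 was 5.17 ± 0.0947 and 5.21 ± 0.0713. The ratio of Bcl2 to Bax, often used as a measure of readiness to die, was 3.93 ± 0.345 and 3.83 ± 0.262 and overlapped. The summed level of Bcl2, Mcl1 and Bcl2l1 was 560.6 ± 8.60 TPM in control and 539.7 ± 4.59 TPM in NFL libraries (SD, n = 3 each). Of that sum, Bcl2l1 made up 10.8 ± 0.528% in control and 12.4 ± 0.279% in NFL libraries. The sum divided by that of Bax and Bak1 was 2.37 ± 0.115 and 2.38 ± 0.0405.

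The genes whose log2 CPM followed Bcl2l1 most closely over the 6 libraries were Gm49412 (Pearson r = 0.995), Tnfrsf12a (r = 0.995), which encodes the receptor for TWEAK, and Dok2 (r = 0.991), which encodes a signalling adaptor. These values are a description over 6 libraries in 2 groups, and 64 genes had r over 0.95.

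The wider survival machinery was described through 8 lists of 90 genes, members included, of which 76 were tested. Of these, 5 were higher and 2 lower (9.21%), against 7.00% of all genes, and the median log2 fold change was -0.0040 against -0.00099. Without the members, 6 of 68 were past the threshold (8.82%).

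Among BH3-only genes, 1 of the 6 tested fell (16.7%, against 7.00% of all genes past the threshold in either direction). The other 5 were not past the threshold, and the list median was -0.069 on the log2 scale. The gene that fell was Bmf (ENSMUSG00000040093.16), whose protein senses loss of attachment and cytokine. Bmf had 20.4, 20.0 and 18.7 CPM in control and 15.2, 14.7 and 14.7 CPM in NFL libraries, with no overlap (log2 fold change -0.41, standard error 0.092, edgeR adjusted p = 0.0024). Its call held in each of 14 alternatives. Other BH3-only genes were Pmaip1 (NOXA, log2 fold change 0.080, edgeR adjusted p = 0.446), Bid (-0.10, edgeR adjusted p = 0.432) and Bad (-0.035, edgeR adjusted p = 0.867).

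In the apoptosome group, Cycs, which encodes cytochrome c, rose. It had 206.6, 190.6 and 202.5 CPM in control and 217.3, 226.6 and 220.4 CPM in NFL libraries, without overlap (log2 fold change 0.15, standard error 0.034, edgeR adjusted p = 0.0036). Its call held in 14 of 14 alternatives. Apaf1, which joins cytochrome c in the apoptosome, was at -0.098 (edgeR adjusted p = 0.292), Casp2 at -0.056 and Aifm1 at 0.037, none of them past the threshold.

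Among the 12 tested genes of the inhibitor of apoptosis (IAP) group, 1 rose and none fell, with a list median of -0.0013. This share of 8.33% was near the 7.00% of all genes past the threshold. Birc3, which encodes the NF-κB-responsive cIAP2, had 19.1, 18.5 and 18.8 CPM in control and 24.9, 27.0 and 27.3 CPM in NFL libraries (log2 fold change 0.49, standard error 0.081, edgeR adjusted p = 2.3e-05). Xiap, of the same family, is described above. Birc5 (survivin) was at 0.089 (edgeR adjusted p = 0.0911), Birc6 at 0.0058 and the IAP antagonist Htra2 at 0.15 (edgeR adjusted p = 0.083), without passing the threshold.

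In the death receptor group, 1 of 13 tested genes rose and none fell (7.69%, near the 7.00% of all genes), with a list median of 0.052. The gene was Cyld, a deubiquitinase that restrains NF-κB, at 98.9 ± 1.38 CPM and 108.7 ± 2.81 CPM (SD, n = 3 each, log2 fold change 0.14, edgeR adjusted p = 0.030). Its call was lost without control replicate 1, NFL replicate 2 or NFL replicate 3 (adjusted p = 0.108, 0.185 and 0.0838), with library size alone (0.0601) and without the count filter (0.0513). Casp8 was at 0.052 (edgeR adjusted p = 0.395), Ripk1 at -0.036 and Mlkl at 0.062.

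Of 18 tested upstream regulators of BCL2 proteins, 1 fell and none rose (5.56%, near the 7.00% of all genes), with a list median of 0.053. Gsk3b, a kinase known to mark MCL1 for degradation, was at 125.0 ± 3.6 CPM and 113.7 ± 4.01 CPM (SD, n = 3 each, log2 fold change -0.13, edgeR adjusted p = 0.0283). It was not past the threshold without control replicate 2, NFL replicate 1 or NFL replicate 2 (adjusted p = 0.112, 0.102 and 0.206) or with thinned counts (0.107). The MCL1 ubiquitin ligase gene Huwe1 was at -0.0083, the deubiquitinase gene Usp9x at -0.013, Akt1 at 0.065 and Akt2 at 0.065. None of the other 3 tested guardians, of the 2 pore-forming genes or of the 10 tested BCL2-related and mitochondrial partners was past the threshold, among the last Bclaf1 (0.078, edgeR adjusted p = 0.106), Vdac1 (-0.049), Vdac3 (-0.0035) and Bnip2 (-0.051). The list medians were 0.035, -0.033 and -0.033.

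**Figure D4:**
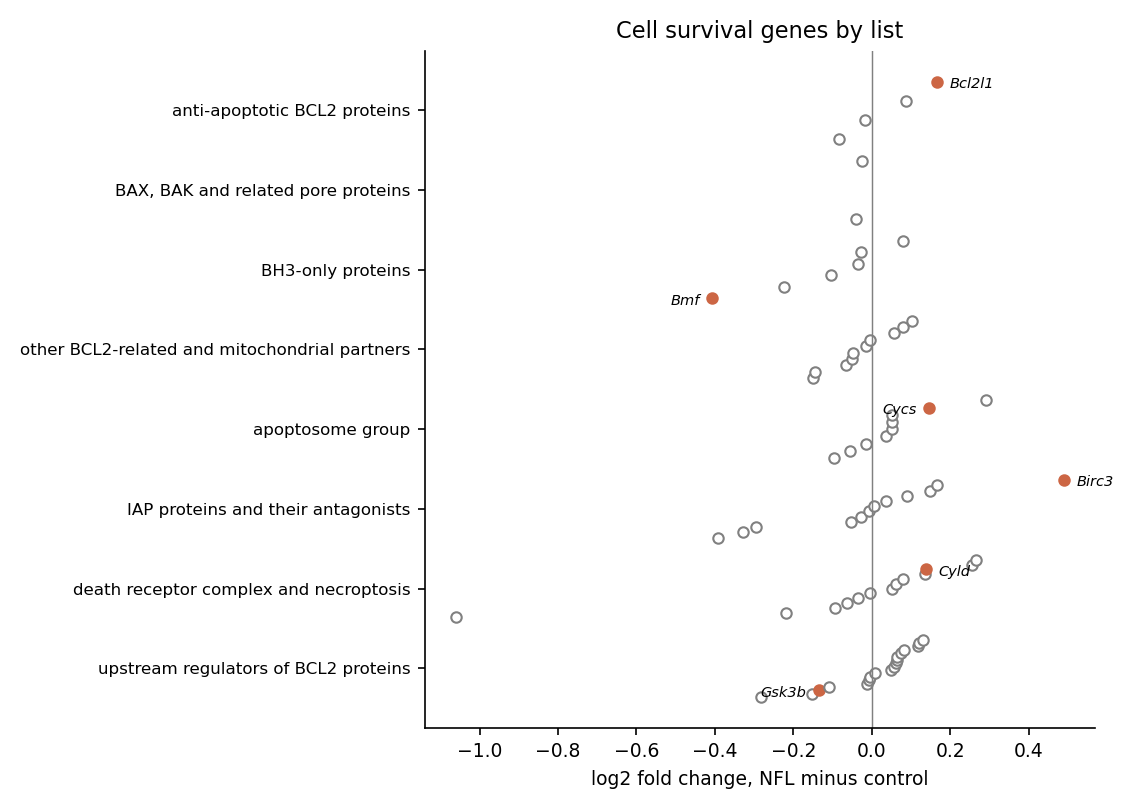
Log2 fold change of NFL against control (x axis) for 74 of the 76 tested genes of 8 survival lists (rows, 1 point per gene). Orange points are past an edgeR adjusted p of 0.05 and carry their names, and open points are not past it. Birc3 at 0.49 and Bmf at -0.41 are the farthest from 0 among the named points.

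The calls of Bcl2 and Bcl2l1 depended on the setting. Over 14 alternatives Bcl2l1 was past the threshold in 11 and Bcl2 in 8, with the same direction in all 14 for each gene. The median of all genes shifted most with library size alone, by -0.0139 on the log2 scale, beside a log2 fold change of -0.085 for Bcl2.

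**Figure D5:**
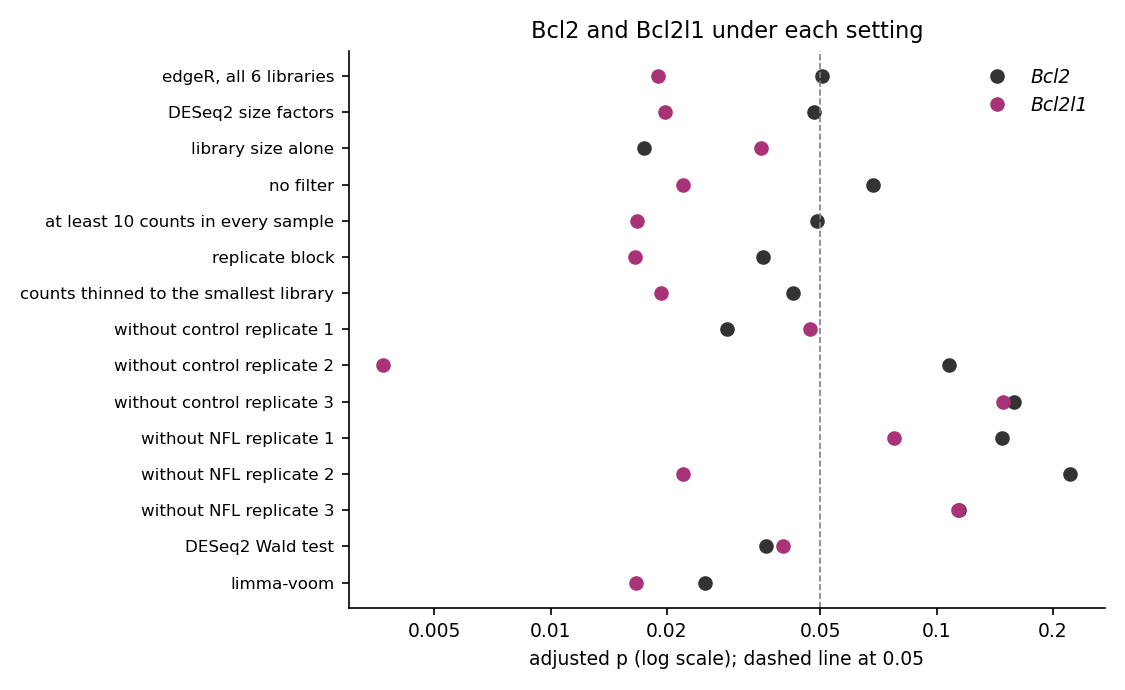
Adjusted p (x axis, log scale) of Bcl2 (black) and Bcl2l1 (purple) in the edgeR fit of all 6 libraries and in 14 alternatives (rows), with a dashed line at 0.05. Bcl2 lies close to the line in most rows with all 6 libraries, and both genes move past it to the right without control replicate 3, NFL replicate 1 or NFL replicate 3.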

How the data were processed

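Poly(A)-selected RNA of 6 T-cell samples, 3 per group, was sequenced on an Illumina instrument. The authors deposited raw read counts per gene, not normalized, with 1 column per sample. The submitters' processing notes name GRCm39, R 4.2.1 and limma 3.54.2. The aligner, the counting program, its annotation and its strand setting are not given in the sources used here. Of 55401 identifiers, 55141 had a symbol and 54349 were identical in version to GENCODE M21 (GRCm38), whose coordinates and exon lengths were used, although the notes name GRCm39. Bmf, whose version differed, has neither. Promoter windows came from RefSeq (GRCm38.p6) and covered all 10 members.

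Genes were kept by filterByExpr (minimum count 10, minimum total 15) and tested across all genes with TMM scaling and glmQLFit and glmQLFTest of edgeR 4.0.16 in R 4.3.3, with Benjamini-Hochberg adjustment, a threshold of 0.05 and no replicate block. The standard error was the log2 fold change over the square root of F, and 95% intervals used the total degrees of freedom. Total counts were 15843045 to 24639756. Between libraries of a group, chi-square per degree of freedom was 1.88 to 3.42, and libraries thus differed beyond sampling noise. Exact permutation tests were two-sided. The genes named are the 10 members, every list gene past the threshold, up to 4 others per list with the highest level and the 3 genes most like Bcl2l1. Counts over all lists include 2 genes that are not reported here. Members and lists were chosen with earlier results of these data known. Alternatives were DESeq2 1.42.0 size factors and Wald test, limma-voom (limma 3.58.1), library size alone, no filter, at least 10 counts in every sample, thinned counts, the replicate block, each library left out, thresholds of 0.01 and 0.1, and summed Bcl2a1 copies. The edgeR procedure was tested on simulated counts, with 50 genes changed at each fold. It recovered 6 of 50 at a fold of 1.1, 41 at 1.25, 46 at 1.5 and 50 at 2, with 5 false calls. Changes of about 1.1-fold were thus mostly missed in the simulation. Its changed genes were drawn from those with a mean count over 50, and all genes shared a dispersion of 0.0012. The 8 measured members had 484 counts or more in every library, so this recovery is not an estimate for them. Figures were drawn with matplotlib 3.10.9.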

Additional observations from a re-analysis of the deposited data

How the results depend on the processing

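The number of members past the threshold was 2 in place of 1 with DESeq2 size factors, library size alone, at least 10 counts in every sample, thinned counts, the DESeq2 Wald test, limma-voom and an adjusted p under 0.1, with Bcl2 as the added gene. It was 0 at an adjusted p under 0.01, where edgeR gave 2 members at an unadjusted p under 0.05, and 0 to 2 with each library left out. The log2 fold change of Bcl2, called lower in these fits, was -0.085 with DESeq2 size factors (adjusted p = 0.0482), -0.099 with library size alone (0.0174), -0.086 with at least 10 counts in every sample (0.0491), -0.089 with thinned counts (0.0423), -0.085 with the DESeq2 Wald test (0.0362) and -0.083 with limma-voom (0.0252). With each library left out it ran from -0.10 to -0.073 (adjusted p 0.0285 to 0.222), past the threshold only without control replicate 1, and that of Bcl2l1 from 0.13 to 0.20 (adjusted p 0.0037 to 0.149). The direction turned for small differences with a library left out, within the ranges -0.034 to 0.00068 for Mcl1, -0.090 to 0.0305 for Bax, -0.059 to 0.0032 for Bak1, -0.042 to 0.028 for Cflar, -0.018 to 0.0028 for Xiap, -0.028 to 0.014 for Vdac3, -0.0048 to 0.023 for Birc6, -0.014 to 0.0044 for Huwe1 and -0.036 to 0.0081 for Usp9x. It also turned for Vdac3 (0.0047) and Birc6 (-0.0016) with thinned counts and for Birc6 with library size alone (-0.0082). The cause was not tested. Genes past the threshold numbered 986 in all, 500 at an adjusted p under 0.01, 508 to 966 with each library left out (508 without NFL replicate 3 and 616 without NFL replicate 2) and 1405 at 0.1. Genes of the survival lists past it numbered 7, with 4 at an adjusted p under 0.01, 11 at 0.1 and 5 to 9 with a library left out.

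Same-numbered samples did not vary together, with a correlation of deviations from the group means of 0.0074 to 0.0148, although each sample correlated best with its own number (other numbers, -0.016 to 0.0033). With the replicate block 1049 genes, 9 list genes and 2 members were past the threshold, and Bcl2 was at -0.085 (adjusted p = 0.0354). Summed Bcl2a1 copies gave no value.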

Other observations

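Several genes of the survival lists were at or under the floor of 3 counts in every library, and were picked out after their values were seen. Fas, which encodes the death receptor CD95, had 0 counts in all 6 libraries, which allows a level of up to 0.122 to 0.189 CPM for counting error alone. The gene of its ligand, Fasl, was at 0.737 ± 0.327 CPM in control and 0.924 ± 0.184 CPM in NFL libraries (SD, n = 3 each, edgeR adjusted p = 0.806). Tnfaip3, which encodes the NF-κB inhibitor A20, had 3 counts in all, in 2 libraries, while its partner in NF-κB restraint, Cyld, was near 100 CPM. Hrk had 0 counts, and Bcl2l10, Bok and Naip1 had 1, 5 and 1 counts over the 6 libraries. The TNF receptor genes Tnfrsf1a and Tnfrsf1b, chosen like Fasl after their values were seen, were measured at 17.05 ± 0.446 CPM and 41.2 ± 1.71 CPM in control and 14.6 ± 0.991 CPM and 43.5 ± 2.47 CPM in NFL libraries, neither past the threshold (edgeR adjusted p = 0.179 and 0.55).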
